A study of Homo sapiens with 11 samples.

Results

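Peaks of 2 ubiquitin ligase receptors, CDT2 in U2OS cells and SKP2 in HCT116 WT cells, were compared position by position on chromosomes 1 to 22. All peaks of the CDT2 and SKP2 lists on these chromosomes were taken, which gave 39633 of the 407030 regions in the 8 lists of the series. Of these, 27704 were CDT2 peaks and 11929 were SKP2 peaks. U2OS is a human osteosarcoma line and HCT116 a human colon carcinoma line. Both lists came from unsynchronized, untreated cultures by ChIP-Seq, in which DNA bound by a protein is pulled down with an antibody and sequenced. The series had 1 library for each target and line, and it also mapped CUL4A, H3K4me3, H3K9me3 and replication origins in U2OS cells. From HCT116 cells, further lists held SKP2 peaks and origins in the RepID KO line, in which the gene of RepID, a CUL4-binding protein that also binds origins, had been disrupted.

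The CDT2 library is titled as U2OS, and its antibody was raised against CDT2. The design text assigns it to a stable U2OS line that overexpresses full-length RepID with a FLAG tag, whereas the paper names wild-type U2OS, and which one was used could not be settled. The SKP2 library came from HCT116 cells with intact RepID. Every comparison of the CDT2 list with the SKP2 list therefore changed the target and the cell line at once, and their effects cannot be told apart. No replicate was analysed, so no difference below has a test between conditions. The intervals given are for counting error alone and take each peak as independent of its neighbours.

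CDT2 is the substrate receptor with which the ligase CRL4, built on CUL4 and DDB1, recognizes proteins bound to PCNA on replicating DNA. SKP2 is the F-box receptor of the ligase SCF, which is built on CUL1. Both ligases ubiquitinate CDT1, the licensing factor that loads the replicative helicase at origins, so that origins are not licensed again after they have fired. Trimethylation of histone H3 at lysine 9 (H3K9me3) is typical of silent heterochromatin, and trimethylation at lysine 4 (H3K4me3) of active promoters.

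At least 1 bp of a SKP2 peak was found in 2583 of the CDT2 peaks, a share of 9.32% (Wilson 95% interval 8.99 to 9.67%). In the other direction, 2544 of the SKP2 peaks met CDT2, or 21.3% (20.6 to 22.1%). Peaks that met the other list are called shared, and the remaining 25121 CDT2 peaks and 9385 SKP2 peaks are called CDT2-only and SKP2-only. The CDT2 list is the longer one, with a median width of 554 bp against 361 bp for SKP2. When the CDT2 list was limited to as many peaks as the SKP2 list holds, by the highest scores, the shares became nearly equal, 15.8% of CDT2 and 15.8% of SKP2 peaks.

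The shared peaks formed 2602 overlapping pairs. In 2459 of these pairs, or 94.5%, neither peak met any further peak of the other list. Only 14 CDT2 peaks met 2 or more SKP2 peaks, and 53 SKP2 peaks met 2 or more CDT2 peaks, with at most 4 in either direction. Sharing was thus almost always between single peaks, not between a broad region of one protein and a cluster of the other.

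The centres of the overlapping peaks lay close together. The median distance from centre to centre was 85.75 bp (80.5 to 92.5 bp), with quartiles of 33.0 and 223 bp. In 909 pairs, or 34.9%, the centres were within 50 bp of each other, and in 1417 pairs, or 54.5%, within 100 bp. A distance over 500 bp was found in 195 pairs, or 7.49%, and the largest was 5702 bp. In 2024 pairs, or 77.8%, the whole SKP2 peak lay inside the CDT2 peak, whereas the CDT2 peak lay inside the SKP2 peak in 43 pairs. There was no offset to one side along the chromosome: the SKP2 centre had the higher coordinate in 1292 pairs and the lower one in 1306, and the median signed distance was −1 bp.

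**Figure D1:**
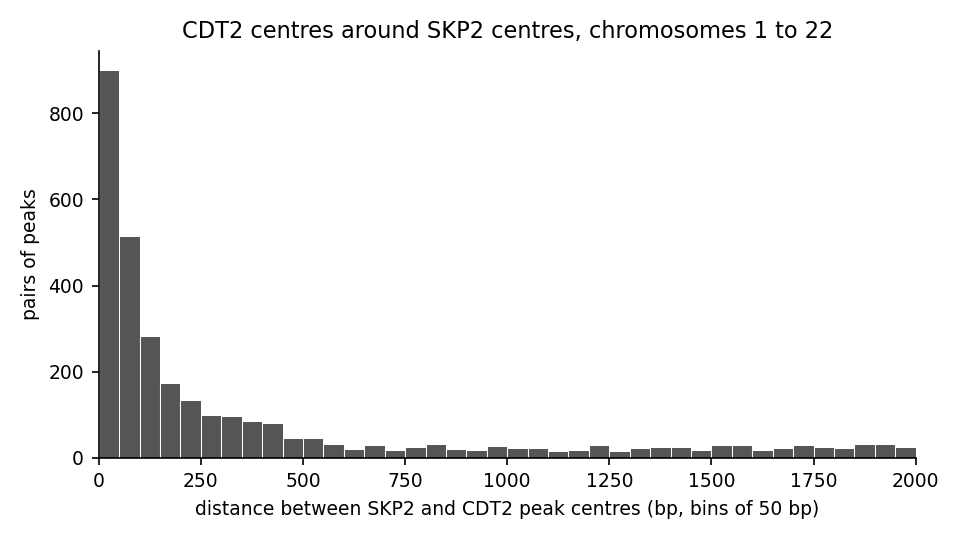
Histogram of the distance between SKP2 and CDT2 peak centres on chromosomes 1 to 22, for all pairs up to 2000 bp whether or not the peaks overlap (x axis, bp in bins of 50 bp; y axis, number of pairs). The number of pairs is highest in the first bins and is nearly flat beyond 500 bp.

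The median distance differed with the score of the SKP2 peak. Pairs with SKP2 peaks in the lowest quintile (1 of 5 groups of equal size) by score had a median distance of 206.5 bp (73.0 to 307 bp), from 72 pairs, those in the next 156.75 bp (101 to 221 bp), from 166 pairs, and those in the highest quintile 80 bp (73.5 to 86.0 bp), from 1267 pairs. The interval of the second lay above that of the highest, whereas the wide interval of the lowest overlapped it. The share of pairs in which CDT2 enclosed the SKP2 peak was 33.3% in the lowest quintile and 94.1% in the highest, and the median width of those CDT2 peaks was 486 and 1086 bp. Pairs whose CDT2 peak met H3K9me3 had a median distance of 88.5 bp (80.5 to 97.5 bp) and those without it 83.75 bp (76.0 to 92.0 bp). With H3K4me3 the median was 78.5 bp (64.0 to 92.0 bp), and without it 87.0 bp (81.5 to 94.5 bp), so that the intervals overlapped for both marks.

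Counting all pairs of centres, also of peaks that do not overlap, showed how far the proximity reached. Within 100 bp there were 119 CDT2 centres per 1000 SKP2 peaks. For each 100 bp of distance the number then fell to 38.3 between 100 and 200 bp, to 19.6 between 200 and 300 bp and to 10.5 between 400 and 500 bp. It was 4.51 between 500 and 1000 bp and 3.86 between 10 and 20 kb. The count nearest to the centre was therefore 30.7 times that at 10 to 20 kb, and the count at 500 to 1000 bp was 1.17 times it. Between 2 and 5 kb it was 3.18, which is below the value at 10 to 20 kb.

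Most peaks had no partner in the neighbourhood. The median distance from a SKP2 centre to the nearest CDT2 centre was 19313 bp, and that from a CDT2 centre to the nearest SKP2 centre was 47213 bp. No CDT2 peak lay within 10 kb of 7361 SKP2 peaks, or 61.7%, and no SKP2 peak within 10 kb of 21769 CDT2 peaks, or 78.6%. CDT2 peaks covered 0.618% of the length of chromosomes 1 to 22, whereas they held the centres of 2268 SKP2 peaks, or 19.0% (18.3 to 19.7%). That was 30.7 times the covered share. SKP2 peaks lay in 1 Mb bins where CDT2 covered more than on average, and against the 1.06% covered in the same bins the ratio was 17.9. These ratios describe the lists and are not a test.

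In bins of 1 Mb, the numbers of CDT2 and SKP2 peaks rose together. Over 2894 bins, Spearman's rho was 0.652 and Pearson's r 0.611. Bins share the composition of their chromosome, the mappability of their sequence and the 2 libraries, so no p-value is given. The median bin held 7 CDT2 and 3 SKP2 peaks, and the highest counts were 100 and 30. Within single chromosomes, rho ranged from 0.372 on chromosome 4 to 0.880 on chromosome 22, with a median of 0.618, so the relation was also present inside chromosomes. Bins without a peak of either list were counted in all these values. Over all chromosomes rho was 0.583 without such bins, and within single chromosomes it was not recalculated without them. SKP2 followed several other lists to a similar or higher degree, with rho of 0.710 for SKP2 in RepID KO cells, 0.741 for CUL4A and 0.749 for origins of RepID KO cells. CDT2 had its highest rho with CUL4A at 0.814, and 0.781 with U2OS origins, 0.766 with H3K9me3 and 0.655 with H3K4me3.

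A similar density did not mean the same positions. Both proteins had peaks in 1195 bins with at least 1 shared peak, or 41.3%, and in a further 1207 bins, or 41.7%, without any shared peak. CDT2 alone was found in 188 bins, SKP2 alone in 106, and neither in 198. The SKP2 share was higher where CDT2 was denser. In bins with 1 to 3 CDT2 peaks, 5.60% (4.47 to 6.998%) of the SKP2 peaks were shared. The share was 12.9% with 4 to 7 CDT2 peaks, 19.4% with 8 to 15, 29.3% with 16 to 31 and 38.0% (34.9 to 41.3%) with 32 to 100. More CDT2 peaks in a bin also cover more of it.

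**Figure D2:**
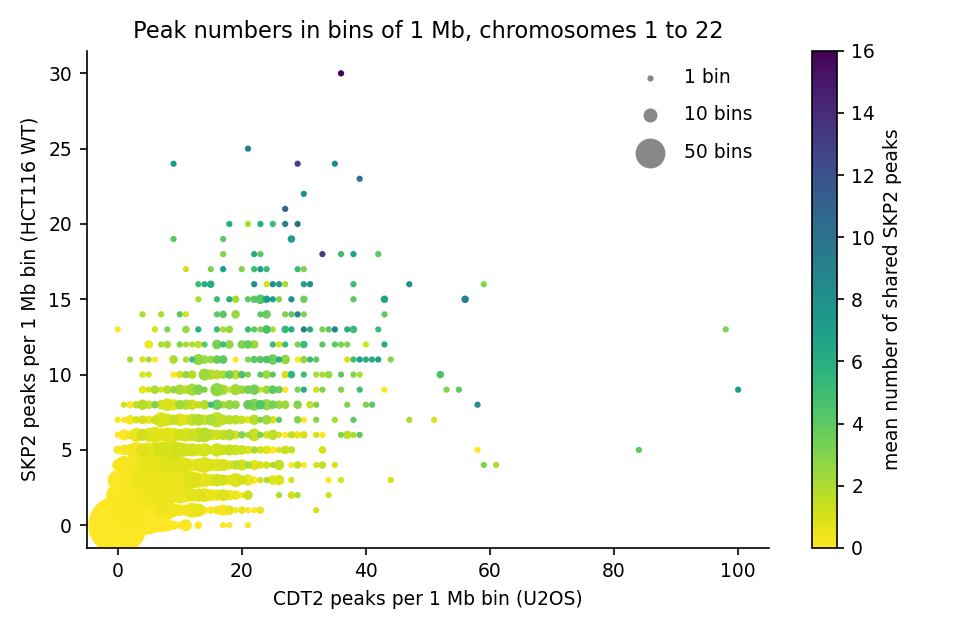
Peaks per 1 Mb bin on chromosomes 1 to 22, with CDT2 in U2OS on the x axis and SKP2 in HCT116 WT on the y axis; the area of a point gives the number of bins and its colour the mean number of shared SKP2 peaks. The numbers rise together, and the bins with 84 to 100 CDT2 peaks lie apart, with 5 to 13 SKP2 peaks.

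The bins richest in CDT2 were not those richest in SKP2. With 100 CDT2 peaks, the bin from 118 to 119 Mb of chromosome 11 led the list, and it held 9 SKP2 peaks, 7 of them shared. On chromosome 20, the bin from 30 to 31 Mb had 98 CDT2 and 13 SKP2 peaks with 3 shared, and the bin from 29 to 30 Mb had 84 and 5 with 4 shared. SKP2 was densest at 49 to 50 Mb of chromosome 4, with 30 peaks beside 36 of CDT2, and this bin also had the most shared SKP2 peaks, 16. The RepID KO line had 40 SKP2 peaks there. The bin that follows held no CDT2 or SKP2 peak. No repeated or poorly mapped sequence was filtered out here. Whether the highest counts, or the single sites named below, come from such sequence was not tested. At 157 to 158 Mb of chromosome 7 there were 25 SKP2 and 21 CDT2 peaks with 9 shared. The first 1 Mb of chromosome 7, 1 of 3 bins with the same SKP2 number, held 24 SKP2 and 29 CDT2 peaks with 13 shared, and the bin from 88 to 89 Mb of chromosome 16 held 18 and 33, also with 13 shared.

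Between chromosomes, densities differed more for CDT2 than for SKP2. CDT2 ranged from 2.04 peaks per Mb on chromosome 13 to 20.3 on chromosome 20, and SKP2 from 2.48 on chromosome 13 to 9.10 on chromosome 19. The densities went together over the 22 chromosomes (Pearson's r 0.865, Spearman's rho 0.781, and r 0.790 without chromosomes 19 and 20). Chromosome 13 was the only one with fewer CDT2 than SKP2 peaks, 235 against 285, while chromosome 5 had 3.88 CDT2 peaks for each SKP2 peak. Relative to its own genome-wide density, chromosome 13 had 0.212 times the CDT2 peaks and 0.598 times the SKP2 peaks. The U2OS origins on it stood at 0.245 times their genome-wide density and the CUL4A peaks at 0.357 times, H3K9me3 at 0.496 and H3K4me3 at 0.524 times. In HCT116 RepID KO cells, SKP2 was at 0.587 and origins at 0.558 times. The deficit was thus present in all 8 lists, and it was deepest in the CDT2 and origin lists of U2OS.

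The shared part of the SKP2 list ranged from 12.3% (9.0 to 16.6%) on chromosome 13 to 30.1% (26.4 to 34.1%) on chromosome 19, with a median of 22.7% and an SD of 4.74 percentage points over the 22 chromosomes. For CDT2 the lowest share was 5.79% (4.80 to 6.97%) on chromosome 3 and the highest 16.9% (13.4 to 21.1%) on chromosome 21, with a median of 9.43%. The SKP2 share was higher on chromosomes with more CDT2 peaks per Mb (r 0.652, rho 0.610, and r 0.572 without chromosomes 19 and 20). It went with the density of SKP2 itself to a similar degree (r 0.658, rho 0.636, and r 0.598 without chromosomes 17 and 19). The CDT2 share was less closely related to SKP2 density (r 0.188, rho 0.142). Divided by the length that CDT2 covers, the order was another one: 11.2% of SKP2 centres on chromosome 13 lay in CDT2 peaks that covered 0.127% of it, a ratio of 88.7, and the lowest ratio, 14.7, was that of chromosome 20. The covered share is the denominator of this ratio and itself goes with CDT2 density, so the order of the ratios is largely set by it. The median centre distance of a chromosome ranged from 47.5 bp on chromosome 15 to 129 bp on chromosome 19.

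**Figure D3:**
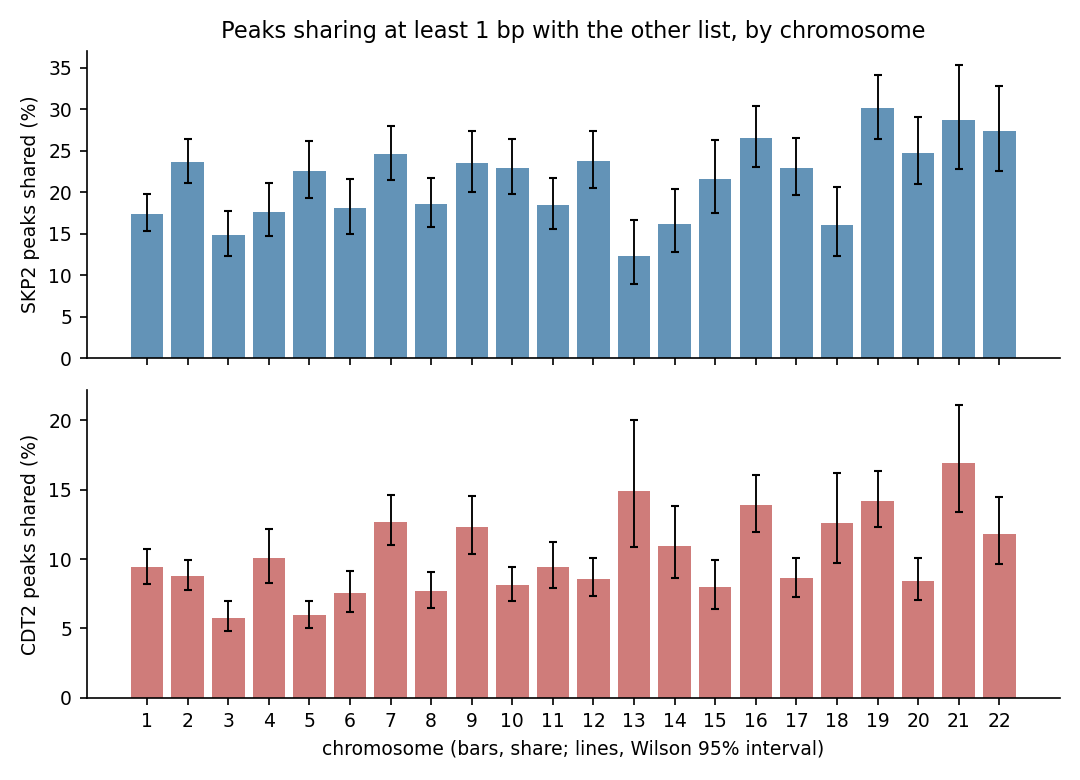
Shared peaks by chromosome, as a percentage of the SKP2 peaks (upper panel) and of the CDT2 peaks (lower panel) on that chromosome; bars give the share and lines its Wilson 95% interval. SKP2 shares run from 12.3% on chromosome 13 to 30.1% on chromosome 19, CDT2 shares from 5.79% on chromosome 3 to 16.9% on chromosome 21.

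Shared peaks were wider than list-specific peaks in both lists. The median width of shared CDT2 peaks was 804 bp (782 to 831 bp), against 541 bp (538 to 544 bp) for CDT2-only peaks. Shared SKP2 peaks had a median of 415 bp (402 to 426 bp), against 347 bp (343 to 353 bp) for SKP2-only peaks. A width of 1 kb or more was found in 35.3% of shared and 8.96% of CDT2-only peaks, and in 9.87% of shared and 4.43% of SKP2-only peaks. The shift was larger for CDT2. Of the CDT2 peaks under 300 bp, 3.75% (3.01 to 4.67%) were shared, and of those of at least 2 kb, 55.3% (49.3 to 61.2%). For CDT2 the share rose with every class of width. Under a rule of at least 1 bp, a wider peak also has more room to meet another.

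SKP2 did not follow width in the same way. The share rose from 13.7% (12.7 to 14.8%) under 300 bp to 29.7% (27.1 to 32.5%) between 400 and 500 bp, was lower again at 23.4% between 500 and 700 bp and 19.98% (18.2 to 21.8%) between 700 and 1000 bp, and reached 58.5% (43.4 to 72.2%) in the 41 peaks of at least 2 kb. Replacing every peak by 1 kb around its centre gave nearly the same shares, 21.6% of SKP2 and 9.67% of CDT2 peaks. This makes all widths equal but enlarges most peaks, since only 11.4% of CDT2 and 5.59% of SKP2 peaks were 1 kb or wider. The similar totals therefore do not show how much of the sharing goes with width.

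**Figure D4:**
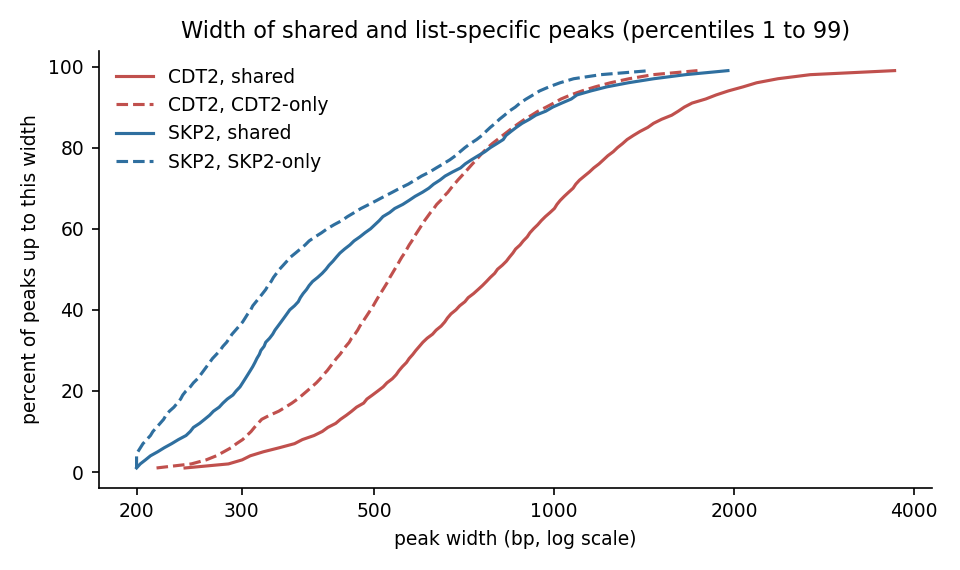
Cumulative distribution of peak width (x axis, bp on a log scale; y axis, percent of peaks up to that width, percentiles 1 to 99) for shared peaks (solid) and list-specific peaks (dashed) of CDT2 and SKP2. The curve of shared CDT2 peaks, with a median of 804 bp, lies to the right of the other 3 over nearly its whole length.

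Shared peaks also had higher scores, which the authors gave each peak and which rank peaks only within a list. The median score was 46.4 for shared and 26.4 for CDT2-only peaks, and these lay at percentiles 82.6 and 47.4 of the CDT2 list. For SKP2 the medians were 868.5 and 339, at percentiles 79.4 and 41.4. The share rose over the quintiles of the CDT2 list from 3.93% to 24.5%. Within the quintile of CDT2 peaks with the highest scores, shared peaks were still wider, with a median of 1008 bp against 759 bp. In the same quintile of SKP2 the medians were 471 and 407.5 bp, whereas in the lowest quintile they were 424 and 440.5 bp.

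H3K9me3 set the shared SKP2 peaks apart from the SKP2-only peaks more than H3K4me3 did. Of all SKP2 peaks, 20.3% met a U2OS H3K9me3 peak by at least 1 bp. The share was 51.0% (49.0 to 52.9%) among shared and 11.9% (11.3 to 12.6%) among SKP2-only peaks, a difference of 39.0 percentage points (Newcombe 95% interval 37.0 to 41.1). Of all CDT2 peaks, 43.4% met H3K9me3. Shared CDT2 peaks did so in 51.7% (49.8 to 53.6%) and CDT2-only peaks in 42.6% (42.0 to 43.2%), a difference of 9.14 points (7.12 to 11.2). This difference was 2.81 points with equal list lengths, 4.68 with the peak centre inside the mark and 4.72 in the stronger 50% of both lists. The H3K9me3 list and the CDT2 list both came from U2OS, and no histone list from HCT116 was used. For SKP2, lying on a CDT2 peak and lying on a region called in U2OS cannot be told apart.

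The H3K9me3 difference was found on nearly every chromosome. Shared SKP2 peaks had the higher share on 22 of 22 chromosomes, by 29.8 points on chromosome 6 to 51.3 points on chromosome 15. Shared CDT2 peaks had it on 20 of 22, and the difference ranged from −3.12 points on chromosome 4 to 18.8 points on chromosome 15. Peaks of similar score gave another picture for CDT2. Within quintiles of the CDT2 list the difference was 2.95, 2.77, 4.197, −7.56 (−12.1 to −2.89) and 1.53 points from the lowest to the highest scores, and the interval excluded 0 only in the fourth, where shared peaks had the lower share. Within quintiles of the SKP2 list it was 15.4 points (7.31 to 26.3) in the lowest and 38.2 points (34.6 to 41.7) in the highest, and the interval lay above 0 in all 5. Between CDT2 peaks of similar width, the difference was 0.940, 3.75, 10.8 (5.39 to 16.2), 4.57 and 4.49 points (1.36 to 7.59) from the narrowest to the widest quintile, and the intervals of quintiles 3 and 5 lay above 0. Between SKP2 peaks of similar width it was 35.6 to 42.04 points. The CDT2 difference was thus smaller than 9.14 points in all 5 quintiles by score and in 4 of 5 by width.

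H3K4me3 was rarer. It met 9.61% of all CDT2 and 9.01% of all SKP2 peaks. Shared CDT2 peaks met it in 15.4% (14.0 to 16.8%) and CDT2-only peaks in 9.02% (8.67 to 9.38%), a difference of 6.35 points (4.96 to 7.83). Among SKP2 peaks it was 15.1% (13.7 to 16.5%) of the shared and 7.37% (6.86 to 7.92%) of the SKP2-only peaks, a difference of 7.68 points (6.24 to 9.21). Shared peaks had the higher share on 21 of 22 chromosomes for CDT2 and on 22 of 22 for SKP2. Within quintiles by score the differences were smaller for CDT2, from 2.16 to 4.51 points, with intervals above 0 in quintiles 3 and 5. For SKP2 they ranged from 3.37 to 7.92 points, and all 5 intervals lay above 0. Between peaks of similar width the differences ran from 3.01 to 8.22 points for CDT2 and from 5.92 to 11.4 points for SKP2. Every interval by width lay above 0.

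The H3K4me3 peaks that the groups met were not alike. Those met by SKP2-only peaks had a median width of 3247 bp and a median −log10 q of 30.6, and those met by shared SKP2 peaks 725 bp and 8.92. For CDT2 the widths were 1302 bp for CDT2-only and 718 bp for shared peaks. Counting only H3K4me3 peaks of at least 2 kb, a limit chosen after these widths had been seen, 5.15% of shared and 4.95% of SKP2-only peaks met one, a difference of 0.195 points (−0.721 to 1.21). Counting only those under 1 kb, it was 8.49% and 1.25%. For CDT2 the difference was 1.26 points (0.430 to 2.21) at 2 kb or more and 4.57 points (3.51 to 5.75) under 1 kb. These classes restate the widths that prompted them and are not independent of them. H3K9me3 went the other way, since the peaks met by shared SKP2 peaks had a higher median −log10 q, 4.39 against 2.79, and were wider, 500 bp against 369 bp.

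Peaks that met both marks were shared most often. Of the 370 SKP2 peaks on both H3K9me3 and H3K4me3, 68.6% (63.8 to 73.2%) were shared with CDT2. The share was 51.0% (48.8 to 53.1%) with H3K9me3 alone, 18.3% (15.6 to 21.3%) with H3K4me3 alone and 12.7% (12.0 to 13.4%) with neither. For CDT2 it was 18.4% (16.5 to 20.5%) of the 1458 peaks with both marks, 10.1% (9.54 to 10.7%) with H3K9me3 alone, 10.7% (9.08 to 12.6%) with H3K4me3 alone and 7.73% (7.30 to 8.17%) with neither. The intervals for a single mark overlapped in the CDT2 list and did not in the SKP2 list. Neither mark was met by 43.9% of the shared SKP2 peaks, against 81.9% of the SKP2-only peaks and 73.8% of all SKP2 peaks.

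CUL4A, the scaffold of CRL4 mapped in U2OS, met 58.6% of all CDT2 and 36.2% of all SKP2 peaks. Among SKP2 peaks it met 70.7% (68.9 to 72.5%) of the shared and 26.9% (26.0 to 27.8%) of the SKP2-only peaks, a difference of 43.8 points (41.8 to 45.8). Shared CDT2 peaks met it in 70.9% and CDT2-only peaks in 57.4%, a difference of 13.5 points (11.6 to 15.3). In the highest quintile by CDT2 score this difference was −0.963 points (−3.54 to 1.504), and in the lowest 12.8 points (6.02 to 19.4). Within the SKP2 quintiles it stayed between 31.9 and 37.9 points. CUL4A and CDT2 were both mapped in U2OS, so the SKP2 differences have the limit given for H3K9me3. The same holds for SKP2 and U2OS origins below.

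The origin lists of U2OS and of HCT116 RepID KO cells gave different results. They differ in line, in RepID and in length, with 126050 and 83872 origins, and these cannot be told apart. U2OS origins met 62.9% of all CDT2 and 54.8% of all SKP2 peaks. They met 63.8% of the shared and 62.8% of the CDT2-only peaks, and the difference of 1.02 points (−0.940 to 2.95) had an interval that included 0. Quintiles by CDT2 score differed in sign: the difference was 14.6 points (7.91 to 20.7) in the lowest and 8.29 points (2.09 to 13.9) in the next, 4.18 and 0.101 points with intervals that included 0 in quintiles 3 and 4, and −14.45 points (−17.4 to −11.5) in the highest. Shared SKP2 peaks met U2OS origins in 63.1% and SKP2-only peaks in 52.5%, a difference of 10.6 points (8.45 to 12.7). Here too the sign changed with the score. From the lowest to the highest SKP2 scores the difference was 25.8 points (14.1 to 36.6), 15.7 (7.70 to 23.2), 9.004 (3.49 to 14.2), −4.36 (−8.42 to −0.408) and −9.49 (−13.3 to −5.64). By SKP2 width it was 22.7, 9.88, 13.7 and 10.3 points in quintiles 1 to 4, with intervals above 0. In the widest quintile it was −3.87 points (−8.48 to 0.713). Origins of HCT116 RepID KO cells met 44.2% of all CDT2 and 49.4% of all SKP2 peaks. They met 69.1% of shared and 41.7% of CDT2-only peaks, a difference of 27.4 points (25.5 to 29.3), and it was 17.0 to 22.5 points within every quintile by CDT2 score. Every shared CDT2 peak lies on a peak called in HCT116. For CDT2, lying on such a region and lying on an origin of this line cannot be told apart. For SKP2 the shares were 68.5% and 44.3%, a difference of 24.2 points (22.2 to 26.3). By SKP2 score it was 15.6 (4.85 to 27.2), 11.3 (3.54 to 19.2) and 9.82 points (4.17 to 15.4) in quintiles 1 to 3. In quintiles 4 and 5 by score it was −0.242 (−4.56 to 4.01) and 0.372 points (−2.70 to 3.46). Between SKP2 peaks of similar width, however, it was 20.9, 19.9, 21.5, 25.2 and 23.2 points from the narrowest to the widest quintile, with every interval above 0.

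SKP2 peaks of the RepID KO line met 13.7% of the SKP2 peaks of the WT line. CDT2 peaks of U2OS met 21.3% of them, from a list of 27704 peaks against 13518. The SKP2 libraries differ in RepID, so how repeatable the SKP2 list is was not measured. SKP2 peaks of the RepID KO line met 25.7% (24.0 to 27.4%) of the shared and 10.5% (9.85 to 11.1%) of the SKP2-only peaks, a difference of 15.3 points (13.5 to 17.1). Within quintiles by score the difference lay between −1.91 and 1.48 points, and all 5 intervals included 0. Between SKP2 peaks of similar width, however, it was 8.41, 8.62, 6.63, 22.8 and 19.4 points from the narrowest to the widest, and all 5 intervals lay above 0. Of the CDT2 peaks, 8.42% met a SKP2 peak of the RepID KO line, with 26.1% of shared and 6.60% of CDT2-only peaks, and within quintiles by CDT2 score the difference was 6.56 to 23.7 points. This last difference is not independent of the WT comparison, since both SKP2 lists come from HCT116.

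**Figure D5:**
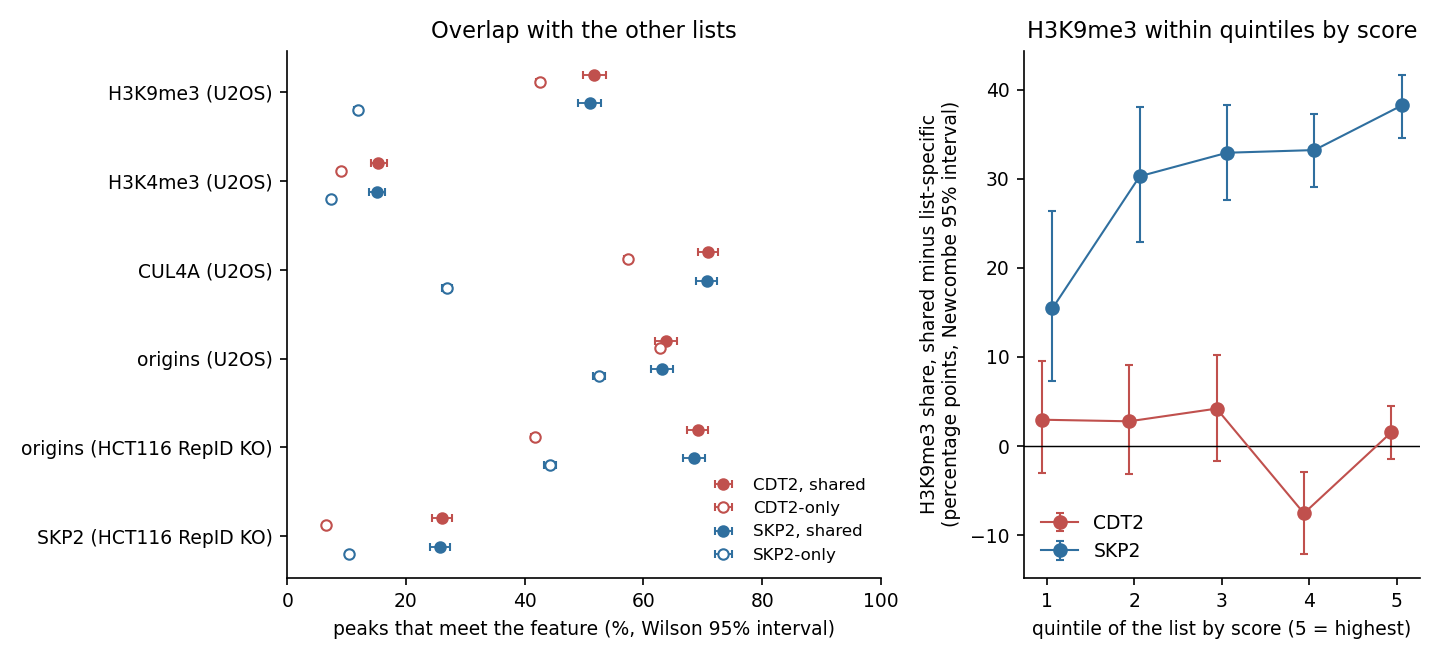
Left, percentage of shared (filled) and list-specific (open) peaks of CDT2 and SKP2 that meet each of 6 other lists by at least 1 bp, with Wilson 95% intervals. Right, the H3K9me3 share of shared minus list-specific peaks within quintiles of each list by score, in percentage points with Newcombe 95% intervals: SKP2 lies at 15.4 to 38.2 points, CDT2 at −7.56 to 4.197 points.

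The pairs with the highest combined ranks were close in position. Of the pairs in which each peak met a single partner, the best lay on chromosome 2, where a CDT2 peak from 5273450 to 5274378 enclosed a SKP2 peak from 5273550 to 5274174, with centres 52.0 bp apart. Their scores of 1298 and 4729 ranked 9 and 17 in the 2 lists. This site met a peak of all the 6 other lists, H3K9me3 and H3K4me3 included. So did the next, on chromosome 5, with CDT2 from 855806 to 857674 and SKP2 from 856430 to 857175, 62.5 bp apart. Near the end of chromosome 1, CDT2 from 249184618 to 249185402 enclosed SKP2 from 249184765 to 249185197, on an H3K9me3 peak with a −log10 q of 137 and without H3K4me3 or a U2OS origin. On chromosome 10, CDT2 from 46527621 to 46528723 enclosed SKP2 from 46528016 to 46528666, again with H3K9me3 and no H3K4me3. The closest of these centres, 3.50 bp apart, were on chromosome 3, with CDT2 from 72700400 to 72701252 and SKP2 from 72700554 to 72701091.

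Of the pairs with H3K4me3 and without H3K9me3, the first was a CDT2 peak on chromosome 5 from 75553063 to 75554059 around a SKP2 peak from 75553151 to 75553878, 46.5 bp apart. It was also among the 6 best pairs of all. The second lay on chromosome 22, where CDT2 from 48977866 to 48981853 and SKP2 from 48978157 to 48981675 were both unusually wide, at 3988 and 3519 bp. In both, the H3K4me3 peak was narrow and weak, with a −log10 q of 3.09 and 1.61, and no U2OS origin was listed.

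Among the strongest peaks were also some without any partner within 10 kb. The CDT2 peak with the highest score of this kind, 1330, lay on chromosome 2 from 33141277 to 33141717, and the nearest SKP2 peak was 143744 bp away. It met CUL4A, H3K4me3 and the origins of both lines, and no H3K9me3. The next were on chromosome 2 from 241671626 to 241672608, with H3K9me3, and on chromosome 9 from 139429678 to 139430677, with neither mark. All 3 met CUL4A and origins of both lines. The SKP2 peaks with the highest scores and no CDT2 peak nearby lay on chromosome 11 from 1092728 to 1093531, on chromosome 8 from 142955259 to 142955654 and on chromosome 1 from 569280 to 569686, with scores of 5724, 5450 and 5293. Each met CUL4A and a U2OS origin, and none met H3K4me3 or a SKP2 peak of the RepID KO line. Positions are those of the deposited lists, which the submitters' processing notes place on hg19. Genes and sequences at these sites were not analysed here.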

How the data were processed

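The data were lists of regions called by the authors from 1 library each, and no reads were used. Submitters' processing notes name hg19, MACS and SICER. For CDT2 and SKP2 the methods name MACS2 broad peaks against IgG, but the CDT2 list looks like output of an older MACS. Deposited CDT2 and SKP2 peaks carry a score of the authors on a scale that is not stated. Further SKP2 columns were not used. For H3K4me3 and H3K9me3 the methods name SICER, but the deposited columns are those of MACS2 broad peaks, with the authors' fold enrichment as a ratio (not used), −log10 p and −log10 q. CUL4A regions and origins came from SICER in windows of 200 bp. Depth is unknown, and aligner versions are not given in the sources used here. The 3 inputs had no list, and the one titled as the U2OS FLAG-RepID line carries HCT116 as its cell line.

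An overlap was at least 1 bp. Bins of 1 Mb were counted by peak centre, and a chromosome's length was the largest end over the 8 lists. Shares have Wilson, differences Newcombe and medians binomial order-statistic intervals, all at 95%. In the recalculations, rho was judged by a Fisher z interval that takes bins as independent. The median share of a chromosome was judged by the Wilson interval of the pooled SKP2 share moved to it. That interval leaves out the spread between chromosomes. No significance test was made, with 1 sample per condition. Sites named are the 6 unique pairs with the lowest sum of score ranks, the first 2 such pairs with H3K4me3 and without H3K9me3, the 3 highest-scoring peaks of each list without a partner within 10 kb, and the top bins and chromosomes. Members, rules and lists were chosen with earlier results of these data known. Overlap counts were tested on simulated data. Alternatives changed the overlap, peak widths, score threshold, list length, bins, chromosomes and rules for the histone peaks, and the classes of H3K4me3 width were added after seeing the data. Python 3.11.15, NumPy 2.4.6, SciPy 1.17.1 and matplotlib 3.10.9 were used.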

Additional observations from a re-analysis of the deposited data

How the results depend on the processing

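Over 52 recalculations of 11 values, 25 stayed within the 95% interval of the value reported and 27 left it. Shares, widths and distances cannot change sign. The 4 differences in histone marks and Spearman's rho could, and 0 of their recalculations did, but the interval of the H3K4me3 difference of SKP2 with wide H3K4me3 peaks included 0. The quintiles by score and by width given above are not among these recalculations. In the fourth quintile by CDT2 score the H3K9me3 difference of CDT2 did change sign, to −7.56 points (−12.1 to −2.89). When at least 50% of the shorter peak had to be covered, the SKP2 share was 20.2% and the CDT2 share 8.72%, the median distance 76.5 bp, the median SKP2 share of a chromosome 21.3%, and the median width of shared peaks 833 bp for CDT2 and 398 bp for SKP2. With a gap of up to 1 kb, the shares were 22.99% and 10.6%, and the H3K9me3 difference of SKP2 was 36.8 points. In the stronger 50% of both lists, the shares were 30.5% and 13.2%, the chromosome median 31.4%, the width of shared CDT2 peaks 924 bp and the H3K9me3 difference of CDT2 4.72 points. With equal list lengths, the shares were 15.8% for SKP2 and 15.8% for CDT2, and the H3K9me3 difference was 2.81 points for CDT2 and 41.8 for SKP2. Spearman's rho was 0.558 in bins of 500 kb, 0.737 in bins of 5 Mb and 0.583 in bins with at least 1 peak. With the peak centre inside the mark, the H3K9me3 difference was 4.68 points for CDT2 and 31.9 for SKP2, and at a −log10 q of at least 2 it was 35.8 for SKP2. With H3K4me3 peaks of at least 2 kb, the H3K4me3 difference was 1.26 points for CDT2 and 0.195 for SKP2, and under 1 kb 4.57 for CDT2. The causes of these changes were not tested.

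No paired analysis was possible because each target and line had 1 library and no result came from a test between samples. The unknown depth limits every count of list-specific peaks: CDT2-only and SKP2-only mean not called in the other list, which is no measure of absence. Intervals take neighbouring peaks as independent and hold for these lists only.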

Other observations

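Outside chromosomes 1 to 22, the X chromosome resembled the rest, with 8.75% (6.65 to 11.4%) of 537 CDT2 and 20% (15.3 to 25.6%) of 230 SKP2 peaks shared. On the Y chromosome, 26.2% (21.3 to 31.7%) of 275 CDT2 peaks and 77.4% (65.6 to 86.0%) of 62 SKP2 peaks were shared, the latter above the highest SKP2 share of any of the 22 chromosomes compared. Whether both lines carry a Y chromosome was not checked, and no filter for repeated sequence was applied here. The Y shares are therefore not read as sharing on that chromosome.

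Shared peaks met more of the 6 other lists. Of the shared SKP2 peaks, 136, or 5.35%, met none of them, against 2835, or 30.2%, of the SKP2-only peaks. For CDT2 the shares were 5.27% and 13.4%. All 6 lists were met by 46 of the shared CDT2 peaks and 93 of the CDT2-only peaks, which is 1.78% and 0.370% of them. Shared peaks were also wider and had higher scores, and these counts were not split by width or score. The lists of CUL4A, both histone marks and U2OS origins come from the same line as the CDT2 list.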
